A study of Mus musculus with 5 samples.

Results

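The genes described here are 8 membrane semaphorins of classes 4 to 7 (*Sema4b*, *Sema4c*, *Sema4f*, *Sema5a*, *Sema6a*, *Sema6c*, *Sema6d* and *Sema7a*) and 2 plexin B receptors (*Plxnb1* and *Plxnb2*), 10 of the 21835 genes in the table, which were picked by name. Bulk RNA sequencing compared murine lung cancer-associated fibroblasts (CAFs) transduced with an empty lentiviral vector (CAF-vec, 2 samples) with CAFs transduced with the miR-200b/a/429 cluster (CAF-200, 3 samples). Both groups are labelled as the same line, with CAF-vec as its wild-type control, and per the labels the infected cells were selected with G418, whereas the study's methods name a hygromycin vector introduced into normal lung fibroblasts. The study's methods describe RNA extracted in triplicate from both groups, whereas CAF-vec has 2 samples here. Nothing in the sources used here says that the samples of a group came from separate cultures, so *p* values measure only the spread between these samples, which may be technical.

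Semaphorins are guidance proteins that share a sema domain and signal through plexins, receptors whose cytoplasmic part acts on small GTPases and so on the cytoskeleton and on adhesion. Classes 4, 5 and 6 span the membrane and class 7 is held by a lipid anchor, so unlike the secreted class 3 they act mostly between neighbouring cells, either as ligands or, for some, as receptors themselves. Plexin B1 and plexin B2 are the usual receptors of class 4 semaphorins, plexin A proteins of class 6, plexin B3 of *Sema5a*, and plexin C1 and integrin β1 of *Sema7a*.

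The miRNAs overexpressed in CAF-200 recognize transcripts mainly through the seed, bases 2 to 8 of the mature strand, and these are shown because the treatment acts through them. In the mature sequences below, from RefSeq (GRCm38.p6, chromosome 4, minus strand), the seed is in capitals.
miR-200b-3p: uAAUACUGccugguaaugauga
miR-429-3p: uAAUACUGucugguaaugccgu
miR-200a-3p: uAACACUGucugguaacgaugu
The seed is shared by miR-200b and miR-429, whose match in a transcript reads CAGTATT, and miR-200a differs from it by a single base and matches CAGTGTT.

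In the longest annotated 3′-UTR of each member (GENCODE M21, GRCm38), 3 of the 10 genes held a 7-base match to either seed, read on the transcript strand. *Sema5a* held 4 matches in 6926 bases, *Sema6d* held 2 in 2461 bases and *Sema6a* held 2, both to miR-200a, in 3129 bases. The other 7 members, among them *Sema6c* and *Sema7a*, held none, and for none of them did a shorter annotated 3′-UTR of a coding transcript hold one. Of the 12060 tested genes with an annotated 3′-UTR, 30.3% held at least 1 match to either seed, 59.0% of those with a 3′-UTR of at least 2 kb and 18.0% of those with a shorter one. The matches of the pair of tested members that hold any are shown, each within 30 bases of its transcript, with the match in capitals.
*Sema6d*, miR-200b/429, chr2:124666287-124666293: ctttgatgtatctacCAGTATTcaatagta
*Sema6d*, miR-200b/429, chr2:124667491-124667497: tactgtgagttctatCAGTATTtatgttga
*Sema5a*, miR-200b/429, chr15:32695688-32695694: cctgtgtttggctgtCAGTATTtgccctga
*Sema5a*, miR-200a, chr15:32690112-32690118: gagtgagacacacaaCAGTGTTctacagct
*Sema5a*, miR-200a, chr15:32690383-32690389: aaattgtgtgttatgCAGTGTTtaattaac
*Sema5a*, miR-200a, chr15:32692908-32692914: aggaatgaaaactgcCAGTGTTgactgacc
All 6 lie on the plus strand of GRCm38 and the coordinates are those of the 7 bases. A match is a description of letters and not evidence of binding.

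**Figure D1:**
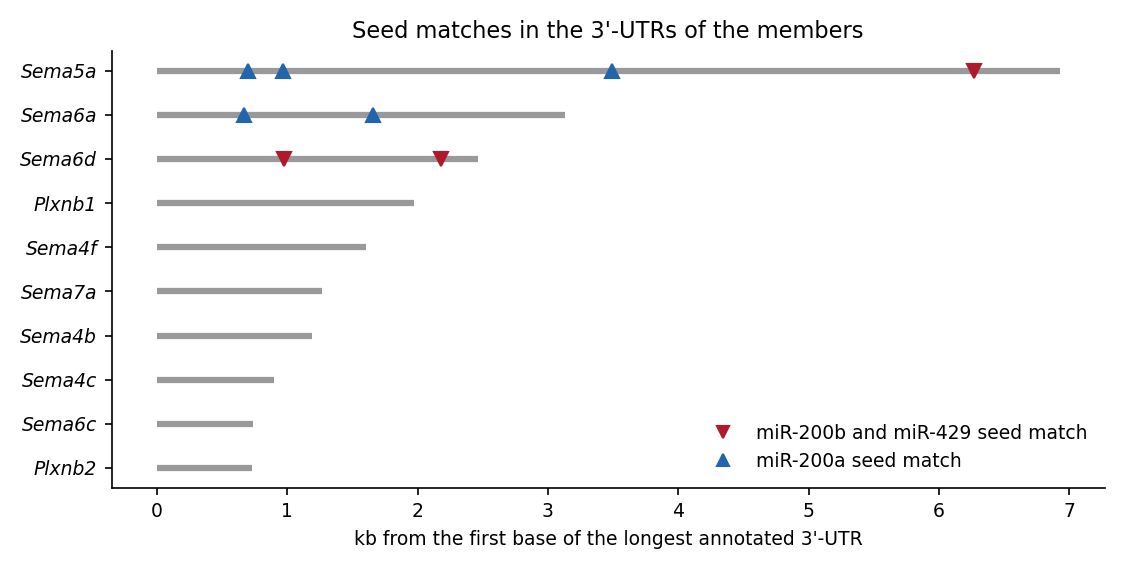
Longest annotated 3′-UTR of each member (grey bars, kb from its first base, GENCODE M21) with the 7-base matches to the miR-200b/429 seed (red) and the miR-200a seed (blue). *Sema5a*, *Sema6a* and *Sema6d* hold all 8 matches, and the other 7 members hold none.

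The deposited values are in CPM, scaled to a total between 999956 and 1000111 in each sample, so the depth of a sample is unknown. They differ more between the CAF-vec samples (SD of the log2 difference over genes 0.49) than between any pair of CAF-200 samples (0.19 to 0.20). Only the CAF-200 values bear marks of an adjustment beyond depth. The part of that adjustment in their smaller spread, which enters every *p* value, was not tested. The miRNAs themselves are not measured in these mRNA libraries, and of their well-known targets *Zeb1* read 43.5 and 50.7 CPM in CAF-vec against 34.1 to 37.8 CPM with miR-200 (-0.36 on the log2 scale, limma adjusted *p* = 0.0504). *Zeb2* read 46.2 and 29.8 CPM against 31.1 to 31.9 CPM (-0.23, limma adjusted *p* = 0.374), and neither passed an adjusted *p* of 0.01. The paper itself measured the miRNAs in both groups by RT-qPCR, and by that method reported less *Zeb1* mRNA in CAF-200. All 8 fibroblast markers were expressed, with *Vim* at 2085 CPM or more, but they did not stay level between the groups. *Dcn* rose from 7.67 and 8.18 CPM to between 51.0 and 61.5 CPM, and *Thy1* from 85.3 and 111 CPM to between 261 and 277 CPM (limma adjusted *p* = 8.4e-04 and 0.0029). *Col1a1* and *Col1a2* had log2 fold-changes of -0.91 and -0.75 and did not pass (limma adjusted *p* = 0.0982 and 0.112), with CAF-vec 1 far above CAF-vec 2 for *Col1a1* (4613 and 2003 CPM). *Col3a1* had a log2 fold-change of 1.02 and did not pass either (limma adjusted *p* = 0.0542). The part of these marker differences in the members' values was not tested. The 7 epithelial markers summed to at most 0.452 CPM in any sample and the 5 endothelial markers to at most 1.06 CPM, with *Krt18*, *Sftpc* and *Emcn* at 0 in all 5 samples. The 7 immune markers summed to 8.34 and 9.31 CPM with the empty vector and to between 12.2 and 12.8 CPM with miR-200. Of the 3 that were tested, *Lyz2* was higher in CAF-200, whereas *Cd68* and *Csf1r* overlapped between the groups with lower means (3.63 against 3.08 CPM and 3.64 against 2.35 CPM), while *Adgre1* and *Cd3e* were at 0 in all samples and *Ptprc* reached 0.0404 CPM at most.

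Of the 10 members, 8 were expressed highly enough to be tested, at more than 0.5 CPM in all 5 samples, and *Sema4f* and *Sema6a* were not. Of the class 5 to 7 members, 3 fell and 1 rose: *Sema6d*, *Sema6c* and *Sema5a* were lower and *Sema7a* was higher in CAF-200 at an adjusted *p* under 0.01 (limma on log2(CPM + 0.5) with Benjamini-Hochberg adjustment over 12175 genes). The class 4 semaphorins *Sema4b* and *Sema4c* and both plexin B receptors did not pass. These 4 of 8 members stand against 10.0% of all genes tested, 5.57% lower and 4.45% higher. With a log2 fold-change beyond 1 also required, the thresholds of the study, 3 members passed, *Sema6d* and *Sema6c* among 2.35% of tested genes that were lower and *Sema7a* among 2.37% that were higher, or 4.72% in all. At an adjusted *p* under 0.05, which 30.5% of tested genes reached, *Plxnb2* joined them as the fifth of 8 members. Without any 1 CAF-200 sample, or with no filter on low values, none of the 8 members passed the adjusted *p* in limma, although *Sema5a*, *Sema6c*, *Sema6d* and *Sema7a* stayed at an unadjusted *p* under 0.05. In the fits without a CAF-200 sample at most 0.0082% of the 12175 genes passed the adjusted *p*, so that loss is not particular to the members. Without a filter 4.51% of 16044 genes still passed it, so there the loss was not general. After centring each sample on its median, *Sema6c* (log2 fold-change -0.99) no longer passed the fold-change threshold. Of all genes past both thresholds 49.7% were lower, against 38.4% once every sample was centred on its median. The median log2 fold-change was -0.38 over the 8 members and -0.094 over all genes tested. For 7 of the 8 members the groups did not overlap, 6 lower and 1 higher in CAF-200, and the same was true of 61.6% of all tested genes (37.3% lower and 24.3% higher).

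**Figure D2:**
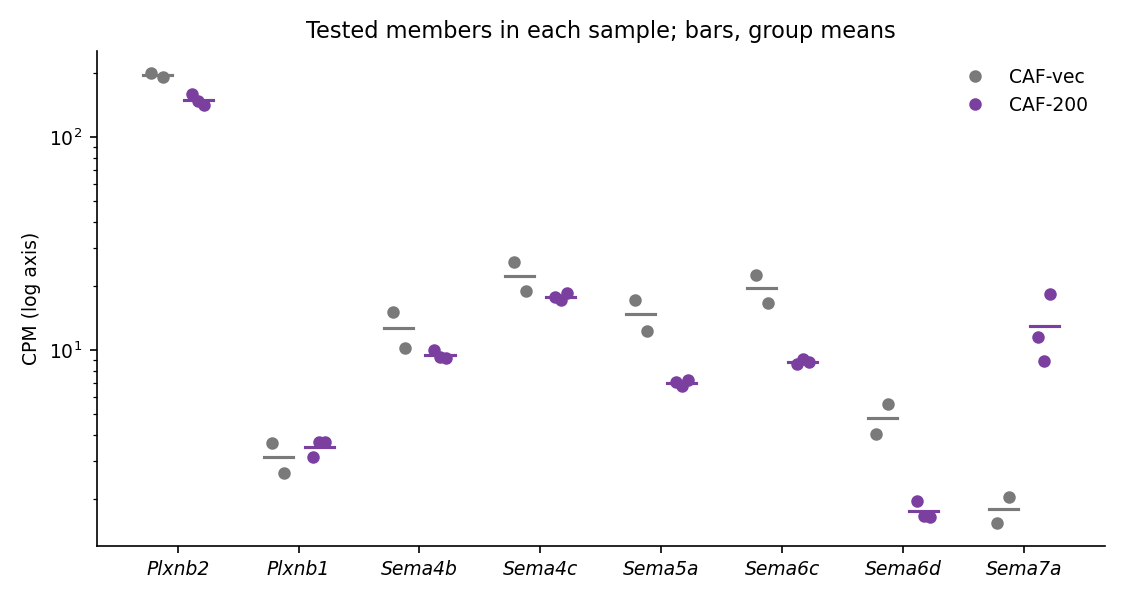
CPM of the 8 tested members on a log axis in the 2 CAF-vec samples (grey) and the 3 CAF-200 samples (purple), with bars at the group means. *Sema5a*, *Sema6c* and *Sema6d* lie lower and *Sema7a* higher in every CAF-200 sample than in either CAF-vec sample, and *Plxnb1* overlaps between the groups.

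Among the receptors, *Plxnb2* (ENSMUSG00000036606, chromosome 15 of GRCm38, 89155549 to 89180788, minus strand), a widely expressed plexin B, was the most abundant member. CAF-vec held 199 and 192 CPM, against 159.6, 147 and 141 CPM for CAF-200. All 3 CAF-200 values were below both CAF-vec values, with means of 196 ± 5.01 CPM (SD, n = 2) and 149 ± 9.26 CPM (SD, n = 3). The difference was 0.39 lower on the log2 scale in CAF-200 (log2 fold-change -0.39 with a standard error of 0.0938, limma adjusted *p* = 0.0288) and did not pass the adjusted *p* of 0.01. Its log2 fold-change was -0.36 without CAF-vec 1 and -0.42 without CAF-vec 2.

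*Plxnb1* (ENSMUSG00000053646, chromosome 9, 109095389 to 109119917, plus strand), the best-known receptor of *Sema4d*, read 3.67 and 2.64 CPM with the empty vector and 3.15, 3.69 and 3.68 CPM with miR-200. The groups overlapped, and the log2 fold-change of 0.14 had a 95% confidence interval from -0.26 to 0.55 (limma adjusted *p* = 0.524). It turned to -0.059 without CAF-vec 2. An antisense transcript, *Gm7628*, overlaps its exons, and whether the authors counted by strand is not given in the sources used here. Per kb of annotated exons *Plxnb2* was 67.5 and 90.3 times as abundant as *Plxnb1* in CAF-vec, and 62.9, 49.6 and 47.8 times as abundant in CAF-200.

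The class 4 semaphorins are transmembrane ligands of plexin B. *Sema4c* (ENSMUSG00000026121, chromosome 1, 36548639 to 36558349, minus strand), a ligand of plexin B2, had values of 25.8 and 18.9 CPM in CAF-vec against 17.8, 17.1 and 18.5 CPM in CAF-200. *Sema4b* (ENSMUSG00000030539, chromosome 7, 80186841 to 80226527, plus strand) had 15.0 and 10.2 CPM, against 10.0, 9.28 and 9.13 CPM. For both genes CAF-vec 1 stood above the other 4 samples, and CAF-vec 2 lay just above the highest CAF-200 value.

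Neither class 4 gene passed the test. The log2 fold-change of *Sema4c* was -0.31 (95% confidence interval -0.67 to 0.057, limma adjusted *p* = 0.161) and that of *Sema4b* was -0.37 (-0.80 to 0.054, limma adjusted *p* = 0.149). Without CAF-vec 1 these values were -0.085 and -0.11, and without CAF-vec 2 they were -0.52 and -0.64, so CAF-vec 1 carries most of the difference. The exons of *Sema4c* overlap those of *D430040D24Rik*, a non-coding gene on the opposite strand.

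*Sema5a* (ENSMUSG00000022231, chromosome 15, 32244810 to 32696341, plus strand) encodes a transmembrane semaphorin with thrombospondin repeats, and its transcript carries the longest 3′-UTR and the most seed matches of the members. Empty-vector cells held 17.1 and 12.2 CPM of it, and miR-200 cells held 7.03, 6.78 and 7.26 CPM. The CAF-200 values were close to one another and all below both CAF-vec values. Means were 14.7 ± 3.47 CPM (SD, n = 2) for CAF-vec and 7.02 ± 0.241 CPM (SD, n = 3) for CAF-200, and *Sema5a* thus fell by 0.99 on the log2 scale (standard error 0.157, limma adjusted *p* = 0.0093), just short of the fold-change threshold of 1. It no longer passed the adjusted *p* after quantile normalization or without the variance trend (limma adjusted *p* = 0.0101 and 0.0103). Without CAF-vec 1 it was -0.76 and without CAF-vec 2 it was -1.23.

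Class 6 semaphorins are transmembrane proteins that bind plexin A receptors and can also signal back into the cell that carries them. *Sema6d* (ENSMUSG00000027200, chromosome 2, 124089969 to 124667770, plus strand), a ligand of plexin A1, gave 4.03 and 5.60 CPM in CAF-vec but 1.95, 1.66 and 1.63 CPM in CAF-200. Each CAF-200 value was less than the lower CAF-vec value, and here CAF-vec 2 was the higher of the pair. From a CAF-vec mean of 4.81 ± 1.11 CPM (SD, n = 2) it fell by 63.6% to 1.75 ± 0.174 CPM (SD, n = 3), and its log2 fold-change was -1.23 (standard error 0.171, limma adjusted *p* = 0.00723). Because *Sema6d* is low, this value moves with the amount added before taking logs, to -1.39 with 0.1 CPM and -1.07 with 1 CPM.

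*Sema6c* (ENSMUSG00000038777, chromosome 3, 95160457 to 95174024, plus strand) stood at 22.4 and 16.6 CPM with the empty vector, and with miR-200 at 8.57, 9.08 and 8.81 CPM. The groups did not overlap, and the CAF-200 samples differed by 0.078 on the log2 scale at most. The CAF-vec mean of 19.5 ± 4.09 CPM (SD, n = 2) compares with 8.82 ± 0.252 CPM (SD, n = 3) in CAF-200, so *Sema6c* fell by 1.09 on the log2 scale (standard error 0.144, limma adjusted *p* = 0.00627). Unlike *Sema5a* and *Sema6d*, its annotated 3′-UTR of 736 bases held no match to either seed. Without CAF-vec 1 its log2 fold-change was -0.88, and without CAF-vec 2 it was -1.30.

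*Sema7a* (ENSMUSG00000038264, chromosome 9, 57940112 to 57962865, plus strand) encodes the lipid-anchored semaphorin of immune and stromal cells, which acts on integrin β1 and plexin C1. Both CAF-vec samples were low in it, with 1.54 and 2.03 CPM, and CAF-200 reached 11.5, 8.83 and 18.4 CPM. The lowest CAF-200 value was well above both CAF-vec values, but *Sema7a* also varied more among the CAF-200 samples than any other tested member, by 1.02 on the log2 scale. *Sema7a* rose 7.24-fold, with means of 1.78 ± 0.350 CPM (SD, n = 2) and 12.9 ± 4.94 CPM (SD, n = 3) and a log2 fold-change of 2.50 (95% confidence interval 1.74 to 3.26, limma adjusted *p* = 0.00528). It ranked 33 among the rises of all genes tested. Its log2 fold-change stayed between 2.22 and 2.73 with each sample left out. With 0.1 CPM added before taking logs it was 2.73, and with 1 CPM it was 2.27, whereas the 7.24-fold is a ratio of mean CPM. The immune marker *Lyz2*, a macrophage lysozyme, also rose (CAF-vec 1.11 and 1.99 CPM, CAF-200 6.48 to 7.48 CPM, 1.91 on the log2 scale, limma adjusted *p* = 0.0039), whereas the macrophage markers *Cd68* and *Csf1r* did not pass (log2 fold-changes of -0.14 and -0.46, limma adjusted *p* = 0.758 and 0.25), and the leukocyte marker *Ptprc* and the macrophage marker *Adgre1* were at or near 0 throughout. The part of such cells in the rise of *Sema7a* was not tested. In bulk RNA, a change in how many cells of a type are present cannot be told apart from one in RNA per cell.

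**Figure D3:**
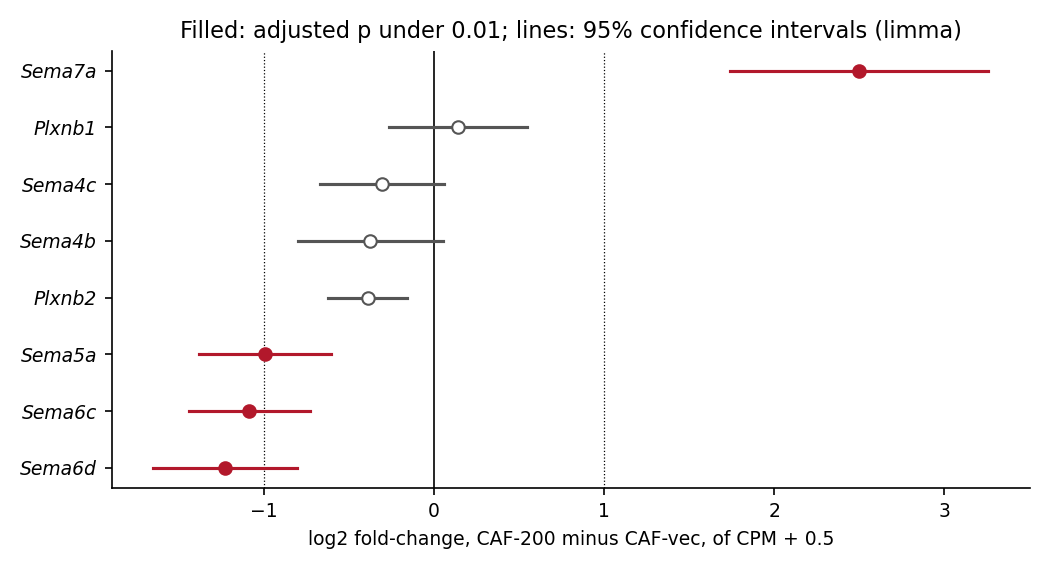
Log2 fold-change of each tested member (CAF-200 minus CAF-vec, on log2(CPM + 0.5)) with its 95% confidence interval from limma, filled where the adjusted *p* was under 0.01, and dotted lines at the fold-change threshold of 1. *Sema7a* lies at 2.50, *Sema5a*, *Sema6c* and *Sema6d* lie between -0.99 and -1.23, and the other 4 members lie between -0.39 and 0.14.

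The members too low to be tested were *Sema6a* (ENSMUSG00000019647, chromosome 18, 47235598 to 47368870, minus strand), a class 6 ligand of plexin A2 and plexin A4, and *Sema4f* (ENSMUSG00000000627, chromosome 6, 82911885 to 82939769, minus strand). *Sema6a* had 0.00876 and 0.0394 CPM in CAF-vec, then 0.121, 0.122 and 0.0619 CPM in CAF-200. *Sema4f* stood at 0 throughout CAF-vec, and its highest CAF-200 value was 0.0102 CPM. Thus the 3′-UTR of *Sema6a*, with its pair of miR-200a matches, belongs to a transcript that was nearly absent from both groups.

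Per kb of annotated exons, a scale that allows levels of different genes to be compared, the order of the members changed between the groups. In CAF-vec it was *Plxnb2* (25.4 CPM per kb), *Sema4c* (4.86), *Sema6c* (3.28), *Sema4b* (2.24), *Sema5a* (0.785), *Sema7a* (0.541), *Sema6d* (0.456) and *Plxnb1* (0.329). Of these neighbours *Sema7a* and *Sema6d*, and *Sema6d* and *Plxnb1*, overlapped over the samples. In CAF-200 the order was *Plxnb2* (19.4 CPM per kb), *Sema7a* (3.91), *Sema4c* (3.87), *Sema4b* (1.68), *Sema6c* (1.49), *Sema5a* (0.376), *Plxnb1* (0.366) and *Sema6d* (0.166). Here *Sema7a* overlapped with *Sema4c*, and *Sema5a* with *Plxnb1*.

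*Sema7a* thus made up 4.44% of the summed level per kb of the 6 tested semaphorins in CAF-vec and 34.0% in CAF-200, while *Sema6c* made up 27.0% and 12.9%. *Sema4c* made up 40.0% and 33.7%. The sum itself overlapped between the groups, with 13.8 and 10.5 CPM per kb in CAF-vec and 11.1, 10.1 and 13.2 CPM per kb in CAF-200. These shares are descriptions and were not tested, and they rest on the union of all annotated exons, which for *Sema5a* is 18686 bases long.

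**Figure D4:**
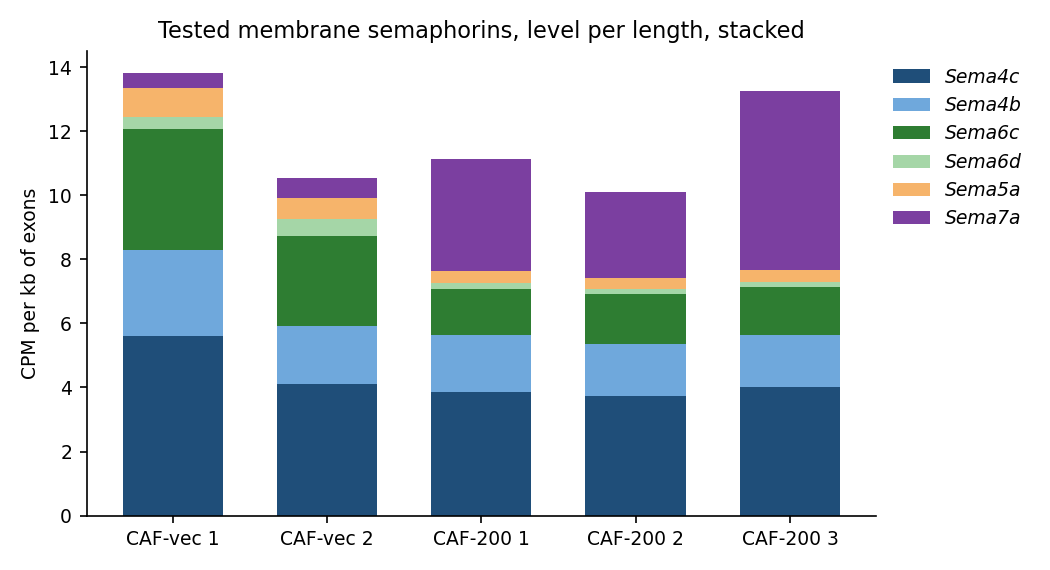
Summed level of the 6 tested membrane semaphorins in each sample, in CPM per kb of annotated exons, stacked by gene. *Sema7a* takes 3.37% and 5.85% of the bar in the CAF-vec samples and 26.5% to 42.1% in the CAF-200 samples, while the bar heights of the groups overlap.

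The remaining genes of these families were mostly not expressed. Of the 5 other class 4 to 7 semaphorins and plexin B3, only *Sema6b* and *Sema4g* were tested, and neither passed the adjusted *p* of 0.01 in limma (1 at an unadjusted *p* under 0.05). *Sema6b*, a further class 6 ligand, read 3.26 and 3.16 CPM with the empty vector and 4.50 to 4.94 CPM with miR-200 (0.48 on the log2 scale, limma adjusted *p* = 0.0243), a difference opposite in sign to those of *Sema6c* and *Sema6d*. *Sema4g* had a log2 fold-change of -0.31 (limma adjusted *p* = 0.191). *Sema4a*, *Sema4d*, *Sema5b* and *Plxnb3* were at 0.318 CPM or less in all samples, so neither the main ligand of *Plxnb1* nor the plexin B3 receptor of *Sema5a* was expressed highly enough to be tested.

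Among 12 other receptors and receptor partners, 11 were tested, and 3 fell and none rose at an adjusted *p* under 0.01 in limma (5 lower and 4 higher at an unadjusted *p* under 0.05). Over all genes tested, 5.57% were lower and 4.45% higher at the adjusted *p*, and 44.9% had an unadjusted *p* under 0.05. None of the 3 passed without a filter, or in the fits without a CAF-200 sample, where nearly all genes were lost. *Kdr*, which encodes the VEGF receptor 2 that can join plexin A1 in *Sema6d* signaling, fell by 1.26 on the log2 scale, from a mean of 2.06 ± 0.349 CPM (SD, n = 2) to one of 0.569 ± 0.148 CPM (SD, n = 3). Its CAF-200 values of 0.690, 0.612 and 0.405 CPM lie near the 0.5 CPM added before taking logs, so its fold-change depends on that amount. *Erbb2*, a receptor tyrosine kinase that associates with plexin B proteins, fell from 39.3 ± 5.82 to 21.5 ± 1.09 CPM (-0.85), and *Plxna2*, a receptor of class 6 semaphorins, fell from 38.3 ± 0.150 to 26.5 ± 0.717 CPM (-0.52).

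Values between an adjusted *p* of 0.01 and 0.05, which did not pass, were a log2 fold-change of -1.04 for *Plxnd1*, -0.52 for *Plxna3*, 0.67 for *Met*, the other kinase partner of plexin B, and 0.55 for *Itgb1*, the integrin β1 receptor of *Sema7a*. *Plxna1*, the plexin of *Sema6d*, had a log2 fold-change of 0.32 (limma adjusted *p* = 0.10). *Plxnc1*, the plexin of *Sema7a*, was low, with 0.114 and 0.289 CPM in CAF-vec against 0.533, 0.576 and 1.28 CPM in CAF-200 (0.85, limma adjusted *p* = 0.0764). *Mst1r* was too low to be tested.

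Downstream of the plexins, 26 GTPases, exchange factors and effectors were all tested, and 3 fell and 1 rose at an adjusted *p* under 0.01 in limma (6 lower and 5 higher at an unadjusted *p* under 0.05). These 4 of 26 stand near the 10.0% of all genes tested, and the 11 at an unadjusted *p* under 0.05 near the 44.9%, so nothing is read from the list as a whole. The plexin-binding Rnd GTPases did not move alike. *Rnd2* fell by 0.86 on the log2 scale, from 26.0 ± 1.70 to 14.2 ± 1.77 CPM. *Rnd3* fell by 0.77, from 49.8 ± 0.958 to 28.9 ± 1.55 CPM. *Rnd1*, a direct partner of plexin B1, rose from 37.7 ± 2.19 to 58.2 ± 3.81 CPM (log2 fold-change 0.62). *Farp1*, a guanine nucleotide exchange factor, fell from 141.6 ± 8.35 to 93.3 ± 2.08 CPM (-0.60). The exchange factors *Arhgef11* and *Arhgef12*, through which plexin B activates RhoA, had log2 fold-changes of -0.023 and -0.17 (limma adjusted *p* = 0.877 and 0.227), and *Rhoa* itself one of -0.27 (limma adjusted *p* = 0.175). The median log2 fold-change of this list was -0.14, and that of the receptor list was -0.15.

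The genes whose profile over the 5 samples was most like that of *Sema7a* were *Sprr2h*, *Sh3kbp1* and *Tarm1*, with a root mean square difference of 0.18 to 0.21 on the centred log2 scale. *Sprr2h* and *Tarm1* were under 0.5 CPM in both CAF-vec samples, so their profiles, and with them the likeness, depend on the 0.5 CPM added before taking logs. *Sh3kbp1* read 8.70 and 9.44 CPM in CAF-vec against 55.5, 50.6 and 67.5 CPM in CAF-200, so like *Sema7a* it was highest in CAF-200 3 and lowest of that group in CAF-200 2. *Sprr2h* was listed at 0 for CAF-vec and ranged from 1.23 to 2.75 CPM for CAF-200. Most like *Sema6d* were *Cystm1*, *Dgkh* and *Iglon5*, with a difference of 0.058 to 0.076. *Dgkh* read 5.46 and 6.90 CPM in CAF-vec against 2.56, 2.41 and 2.36 CPM in CAF-200.

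With CAF-vec holding only 2 samples, the choice of the CAF-vec sample moved the members' fold-changes more than any other setting for 6 of the 8, all but *Sema7a* and *Plxnb2*. *Sema5a*, *Sema6c*, *Sema6d* and *Sema7a* kept their direction in all 13 alternatives.

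**Figure D5:**
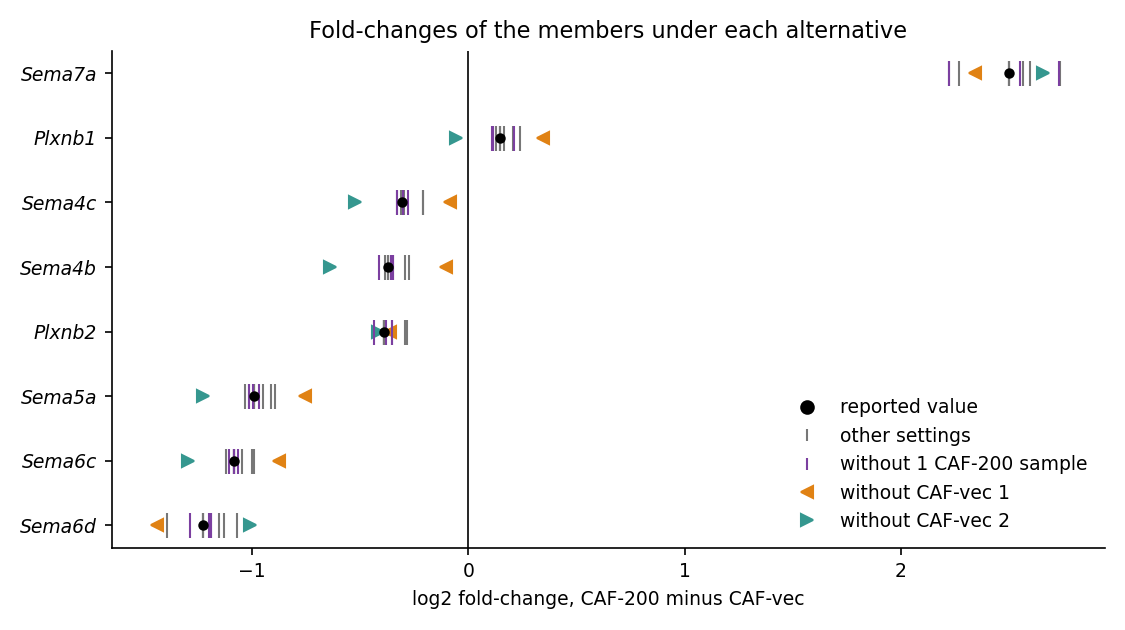
Log2 fold-change of each tested member (CAF-200 minus CAF-vec) as reported (black) and under 13 alternatives, with the fits that lack CAF-vec 1 (orange), CAF-vec 2 (green) or 1 CAF-200 sample (purple) marked. *Plxnb1* is the member that crosses 0, at -0.059 without CAF-vec 2, and *Sema4b* and *Sema4c* spread widely between the fits that lack either CAF-vec sample.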

How the data were processed

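Stranded mRNA libraries of 2 CAF-vec and 3 CAF-200 samples were sequenced paired-end. The authors' processing notes name FastQC, cutadapt, Trimmomatic, STAR, RSEM, edgeR and GRCm38 (mm10). The authors deposited normalized CPM values for 21835 genes in a table named for TMM, which hold no whole counts. All genes at 0 in 1 CAF-200 sample were at 0 in every CAF-200 sample (6127 genes), and 1811 genes had CAF-200 values above 0 but under 0.001 CPM. In CAF-vec 1205 genes were at 0 in 1 sample only, and no gene had a value above 0 but under 0.001 CPM. The CAF-200 values were thus adjusted beyond a division by depth, and these marks differ between the groups compared. Depth is unknown and no count test was run. All 5 sample columns were used.

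Genes reaching 0.5 CPM in 2 or more samples (12175) were compared here on log2(CPM + 0.5) with limma 3.58.1 (R 4.3.3, variance trend) and Benjamini-Hochberg adjustment. "Rose" and "fell" are used at an adjusted *p* under 0.01. Intervals are 95% confidence intervals. Names, exons and 3′-UTRs came from GENCODE M21 by Ensembl identifier (21795 genes matched), and miRNAs from RefSeq. All members were named, genes of the fixed related lists where they passed or were too low, and the 3 genes closest in profile to the largest called rise and fall. Other genes given values were chosen after their values were seen. A marker of the immune list is not reported here by name. The members and lists were chosen with earlier results of these data known. Python 3.11.15, pandas 2.3.3, SciPy 1.17.1 and matplotlib 3.10.9 were used. Alternatives were another pseudocount (1 or 0.1 CPM), dropping the filter or asking for 1 CPM throughout, quantile normalization, median centring, a fit lacking the variance trend, thresholds of 0.05 and 0.5, omission of each sample, and blocking by replicate number.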

Additional observations from a re-analysis of the deposited data

How the results depend on the processing

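Of 104 member fold-changes under 13 alternatives, 103 kept their direction. The exception was *Plxnb1*, at -0.059 without CAF-vec 2 and 0.35 without CAF-vec 1. Leaving out a CAF-vec sample leaves 1 in that group, which limma then takes to vary like CAF-200. For the values below that changed, the cause was not tested, and unknown depth and 2 CAF-vec samples limit all values.

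All counts are from limma. The 2 members lower past both thresholds became 1 after centring (*Sema6c* was lost) and 0 without a filter (2 at an unadjusted *p* under 0.05), where 16044 genes were tested, and 0 with the replicate block (3). The 1 higher became 0 without a filter (1). At the adjusted *p* alone, the 3 lower became 2 after quantile normalization and without the variance trend, where *Sema5a* was lost, 0 without a filter (4) and 0 with the block (3), and the 1 higher became 0 without a filter (2). With each sample left out these counts ranged from 0 to 3 and 0 to 1 past both thresholds and from 0 to 6 and 0 to 1 at the adjusted *p*, with 0 in each fit without a CAF-200 sample, where 4 were lower and 1 higher at an unadjusted *p* under 0.05 (3821 to 4065 of all genes) and *Sema7a* had an adjusted *p* of 0.0248 to 0.0308. Without CAF-vec 1, 1 member was lower past both thresholds (*Sema6d*), and without CAF-vec 2, 6 were lower at the adjusted *p*, which 49.9% of all genes then passed. The adjusted *p* over all alternatives ranged from 3.8e-04 to 0.0308 for *Sema7a*, from 5.4e-04 to 0.047 for *Sema6d*, from 4.1e-05 to 0.0439 for *Sema6c* and from 6.4e-05 to 0.0526 for *Sema5a*.

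Over all genes, 286 lower and 289 higher past both thresholds became 70 and 101 with the replicate block, 436 lower when the adjusted *p* was relaxed to 0.05, 677 and 541 when the fold-change threshold was 0.5, and 0 to 955 and 0 to 625 with a sample left out (the highest without CAF-vec 2, and 0 or 1 without a CAF-200 sample). Of those called, 49.7% were lower, against 38.4% after centring (228 and 365). Numbers 1 and 2 occur in both groups, with correlations of their deviations of 0.25 and 0.13, too few pairs to show a pairing. The block leaves CAF-200 3 out of the estimate, and under it *Sema7a* still passed (log2 fold-change 2.22, adjusted *p* = 0.0078) and *Sema5a*, *Sema6c* and *Sema6d* did not.

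Of the related lists, the other semaphorins and plexin B3 had 1 higher at an adjusted *p* under 0.05, and 0 to 1 lower and 0 to 0 higher with a sample left out. The receptors, 3 lower and 0 higher, became 0 lower without a filter and 0 with the block (5 at an unadjusted *p* under 0.05 in each), 1 higher after quantile normalization or centring, 5 and 2 at an adjusted *p* under 0.05, and 0 to 5 and 0 to 3 with a sample left out. The signaling genes, 3 lower and 1 higher, became 0 and 0 with the block (4 and 3), 0 higher without a filter (5) or without the variance trend (3), 5 and 2 at an adjusted *p* under 0.05, and 0 to 8 and 0 to 3 with a sample left out.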
